A study of Mus musculus with 2 samples.

Results

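Promoter-flanking regions are stretches of accessible DNA that lie close to a gene start without touching its promoter. Here they are the DNase I regions found in both kidney libraries whose nearest edge lay more than 500 and at most 2000 bases from the nearest transcription start site (TSS) of a protein-coding transcript. They numbered 7895 of 96735 shared regions on chromosomes 1 to 19 and X (8.16%, 95% exact binomial interval 7.99 to 8.34). Of these, 3340 lay upstream of the TSS, 4554 lay downstream of it and 1 was equally far from TSSs on either side. The other shared regions were 19360 promoter regions, within 500 bases of a TSS, and 69480 distal regions, more than 2000 bases from any.

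DNase-seq sequences the ends that DNase I leaves where chromatin is open. The kidneys came from B6CASTF1/J females, 8 to 10 months old, which are the offspring of a C57BL/6J by CAST/EiJ cross. There is 1 group with 2 libraries, called replicate 1 and replicate 2. The labels list a tissue sample for each and a single donor entry for both, and do not say whether 2 animals were used. Differences between the libraries may therefore be technical in part, and no test across conditions was possible. One parental genome of the cross differs from the reference genome, and its effect on the signal was not tested. The ranges given in parentheses are exact 95% intervals for counting error alone.

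The core promoter around a TSS holds the general transcription machinery, and in most housekeeping genes it sits in a CpG island, a stretch rich in G, C and the dinucleotide CG. The flanks beyond it can hold proximal enhancers, further start sites, insulator sites bound by the zinc finger protein CTCF, and the edges of the island itself. Downstream flanks usually fall in the first intron or first coding exons, while upstream flanks fall in intergenic sequence or in a neighbouring gene. A footprint is a short stretch inside an accessible region that DNase I cut less, often because a protein covered it.

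The tissue label was compared with marker genes. Of the proximal tubule list, 20 of 22 genes had a promoter region, as did 18 of 18 kidney transcription factor genes and 12 of 12 endothelial genes, against 0 of 14 immune cell genes. Lists of other tissues were open in part, with 5 of 8 adipocyte genes, 5 of 14 hepatocyte genes, 3 of 14 striated muscle genes and 2 of 12 neuron genes, and 63.0% of all protein-coding genes had a promoter region. In bulk tissue, fewer open cells of a type and less opening per cell cannot be told apart. The libraries held 137083 peaks in replicate 1 and 125000 peaks in replicate 2. The peak signal is the authors' deposited value, which rises with accessibility. Its values were whole multiples, to within 0.05 of a step, of 0.00827 in replicate 1 and 0.00834 in replicate 2, so a step may stand for a single tag, although no source used here says so.

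The first set of sequences below shows the strongest flanking regions that are at most 300 bases long, lie outside mRNA exons and hold a footprint found in both libraries. Exons of predicted RefSeq mRNAs count here, and the stronger regions of Rprd2 and Foxn3 were left out because they overlap one. All sequences are the plus strand of GRCm38 (mm10), written 5′ to 3′, and capitals mark the bases under shared footprints. Genes are named by the nearest TSS, which does not show which gene a region acts on.
Kpna1, upstream, chr16:35981661-35981820: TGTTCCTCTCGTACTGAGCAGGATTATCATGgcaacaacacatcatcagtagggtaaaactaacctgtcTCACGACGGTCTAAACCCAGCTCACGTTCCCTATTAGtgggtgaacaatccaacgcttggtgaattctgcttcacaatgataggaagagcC
Bahcc1, upstream, chr11:120231521-120231740: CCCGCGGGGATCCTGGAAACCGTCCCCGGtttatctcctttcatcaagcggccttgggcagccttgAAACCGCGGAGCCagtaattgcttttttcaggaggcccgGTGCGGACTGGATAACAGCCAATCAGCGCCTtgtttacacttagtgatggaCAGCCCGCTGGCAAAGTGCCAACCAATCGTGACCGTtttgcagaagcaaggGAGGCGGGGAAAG
Ptma, upstream, chr1:86525281-86525500: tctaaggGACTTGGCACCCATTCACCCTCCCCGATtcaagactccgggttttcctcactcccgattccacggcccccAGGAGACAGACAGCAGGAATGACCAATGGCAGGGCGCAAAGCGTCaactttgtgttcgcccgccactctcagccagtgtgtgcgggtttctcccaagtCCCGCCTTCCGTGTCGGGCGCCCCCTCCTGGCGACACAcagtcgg
Mxi1, downstream, chr19:53314201-53314460: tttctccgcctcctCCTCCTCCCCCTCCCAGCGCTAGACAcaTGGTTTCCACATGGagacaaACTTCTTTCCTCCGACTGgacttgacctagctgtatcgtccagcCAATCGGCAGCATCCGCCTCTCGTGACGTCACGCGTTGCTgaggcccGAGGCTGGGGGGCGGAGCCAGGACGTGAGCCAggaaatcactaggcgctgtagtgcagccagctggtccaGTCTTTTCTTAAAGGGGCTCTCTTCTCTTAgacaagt
Elf2, downstream, chr3:51276101-51276320: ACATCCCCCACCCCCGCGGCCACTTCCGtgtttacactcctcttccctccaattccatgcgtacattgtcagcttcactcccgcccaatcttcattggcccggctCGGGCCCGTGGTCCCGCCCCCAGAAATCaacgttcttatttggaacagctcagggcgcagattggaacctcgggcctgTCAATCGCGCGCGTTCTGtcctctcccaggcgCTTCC

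In the Mxi1 region the cyclic AMP response element TGACGTCA, the site of CREB family proteins, stood at bases 130 to 137 of the printed strand inside a footprint. A GCCAAT word, the CCAAT box bound by NFY, reached under a footprint at bases 105 to 110. The Bahcc1 region held 2 such CCAAT boxes under footprints, at bases 123 to 128 and 178 to 183, and the Ptma region held 1 at bases 99 to 104. The Kpna1 region held none of the 29 binding words searched. Of its 14 sampled words of 25 bases, 9 also occurred elsewhere in the genome, against 0 in each of the other 19 regions that were strongest on their side. As background, its letters are those of a copy of 28S ribosomal RNA sequence, of which the genome holds many.

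The next set shows the 4 strongest regions that met the same conditions near listed marker genes without a promoter region of their own.
Ren1, downstream, chr1:133353601-133353780: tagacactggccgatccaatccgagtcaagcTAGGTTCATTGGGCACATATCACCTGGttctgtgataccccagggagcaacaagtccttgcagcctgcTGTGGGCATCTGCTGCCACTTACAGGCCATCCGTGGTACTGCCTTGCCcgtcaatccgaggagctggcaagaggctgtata
Tagln, upstream, chr9:45937021-45937200: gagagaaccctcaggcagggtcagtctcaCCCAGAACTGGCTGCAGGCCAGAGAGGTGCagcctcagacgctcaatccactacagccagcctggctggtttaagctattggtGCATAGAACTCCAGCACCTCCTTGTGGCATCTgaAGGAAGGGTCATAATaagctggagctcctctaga
Rbfox3, upstream, chr11:118507961-118508180: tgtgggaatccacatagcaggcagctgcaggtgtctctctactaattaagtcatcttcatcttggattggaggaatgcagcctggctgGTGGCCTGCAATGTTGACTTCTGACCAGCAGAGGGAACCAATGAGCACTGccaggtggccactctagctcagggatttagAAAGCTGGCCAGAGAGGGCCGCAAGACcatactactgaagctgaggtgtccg
Apoa2, upstream, chr1:171223901-171224140: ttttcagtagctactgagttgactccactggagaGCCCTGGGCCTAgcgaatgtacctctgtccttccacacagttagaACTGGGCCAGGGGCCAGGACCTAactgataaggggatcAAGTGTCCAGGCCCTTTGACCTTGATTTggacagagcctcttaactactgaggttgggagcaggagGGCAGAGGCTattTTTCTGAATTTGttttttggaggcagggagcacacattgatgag

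In the Apoa2 region TGACCTTGA, the reverse complement of the word of the estrogen-related receptors, lay under a footprint at bases 134 to 142. The last pair, chosen after their values were seen, are the strongest regions of their side, under the same conditions, that hold the CTCF word.
Med13, upstream, chr11:86358241-86358500: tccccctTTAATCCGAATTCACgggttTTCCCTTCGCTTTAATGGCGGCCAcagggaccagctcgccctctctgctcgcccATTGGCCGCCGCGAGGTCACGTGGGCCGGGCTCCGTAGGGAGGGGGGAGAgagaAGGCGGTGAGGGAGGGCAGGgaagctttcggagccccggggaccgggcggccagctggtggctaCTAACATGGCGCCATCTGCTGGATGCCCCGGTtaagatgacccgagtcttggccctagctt
Parp16, downstream, chr9:65196821-65197040: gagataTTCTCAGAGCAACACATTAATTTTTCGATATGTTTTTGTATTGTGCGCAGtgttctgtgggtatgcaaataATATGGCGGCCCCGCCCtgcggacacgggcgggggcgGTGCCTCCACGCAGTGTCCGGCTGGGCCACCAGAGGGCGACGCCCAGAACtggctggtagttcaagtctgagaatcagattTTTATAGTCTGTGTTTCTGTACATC

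The density of flanking regions fell with distance from the TSS on both sides and was higher downstream. Upstream there were 123 regions per Mb of sequence in the innermost 250 bases of the flank (115 to 131) and 52.4 in the outermost 250 bases (47.0 to 58.3). Downstream there were 173 per Mb in the innermost 250 bases (164 to 182) and 63.3 in the outermost (57.6 to 69.5). Over the whole flank the values were 80.4 per Mb upstream (77.7 to 83.2) and 103 per Mb downstream (100.4 to 106). Distal regions numbered 27.6 per Mb of the remaining genome, an average that includes sequence far from any TSS. In the first distal bin, just beyond the flank, there were 55.9 per Mb upstream (53.0 to 58.9) and 60.3 downstream (57.4 to 63.3). The outermost flank was thus not set apart in density from the sequence next to it. Sequence was counted once, by its nearest TSS, so the flank of a gene ends where another TSS is closer.

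**Figure D1:**
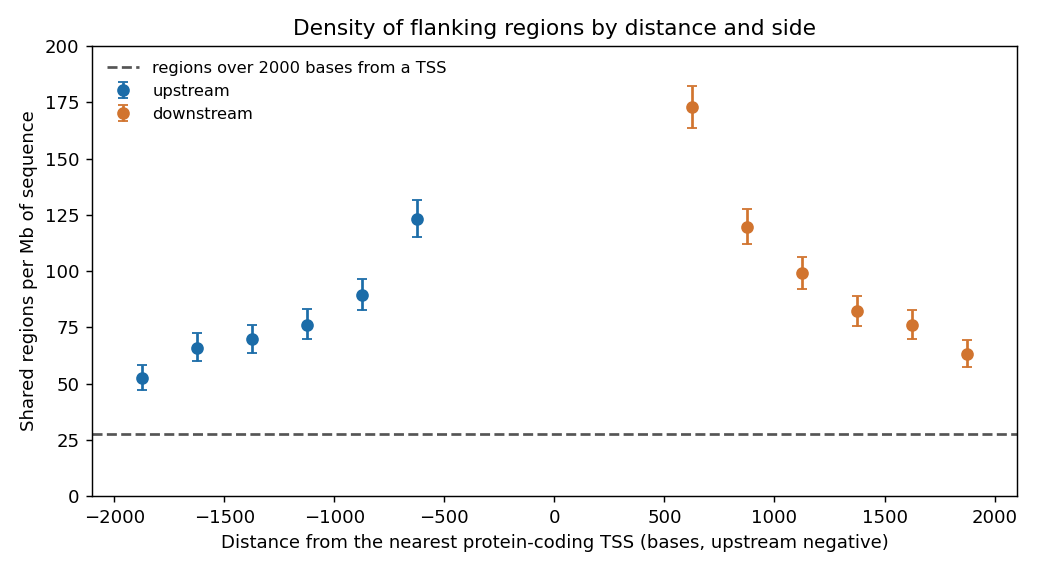
Shared regions per Mb of sequence (vertical axis) by distance from the nearest protein-coding TSS in bins of 250 bases, upstream at the left in blue and downstream at the right in orange, with exact Poisson 95% intervals. The points fall outward on both sides, to 52.4 per Mb upstream and 63.3 per Mb downstream in the outermost bins. These stay above the dashed line at 27.6 per Mb, the average of distal regions over the remaining genome. Just beyond the flank the density was 55.9 per Mb upstream and 60.3 downstream, close to the outermost bins.

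The higher density downstream was also present within introns. Intronic flank sequence held 70.5 region midpoints per Mb upstream (66.5 to 74.7) and 104.5 per Mb downstream (101.1 to 108.1). The 5′ untranslated exons of the downstream flank held the most, with 160 per Mb (131 to 195), against 79.1 upstream (40.9 to 138). Coding sequence held 89.0 upstream (68.2 to 114) and 114 downstream (104 to 124). The order was reversed in intergenic sequence, with 81.8 per Mb upstream (78.0 to 85.6) and 43.9 downstream (33.1 to 57.1). It was also reversed in 3′ untranslated exons, with 106 upstream (83.2 to 134) and 46.7 downstream (37.9 to 56.8). Other exons held 142 upstream (125 to 161) and 131 downstream (118 to 145). By overlap, 52.6% of upstream members were intergenic and 31.2% intronic. Of the downstream members, 66.8% were intronic, 16.3% touched coding sequence and 4.94% touched a 5′ untranslated exon.

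Single-base calls gave the same order in each library. The deposited false discovery rate (FDR) files list accessible bases at an FDR of up to 0.05. Between 500 and 2000 bases from the TSS, they listed 5.25% of upstream bases in replicate 1 and 5.41% in replicate 2. Downstream they listed 6.55% in replicate 1 and 7.61% in replicate 2, and over the whole genome 1.68% and 1.66%. Around TSSs with a promoter region the shares were 10.0% and 10.3% upstream, and 12.7% and 14.7% downstream. Around TSSs without one they were 1.38% and 1.46% upstream, and 1.44% and 1.70% downstream. Listed bases in the flanks were thus concentrated around open promoters in both libraries.

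**Figure D2:**
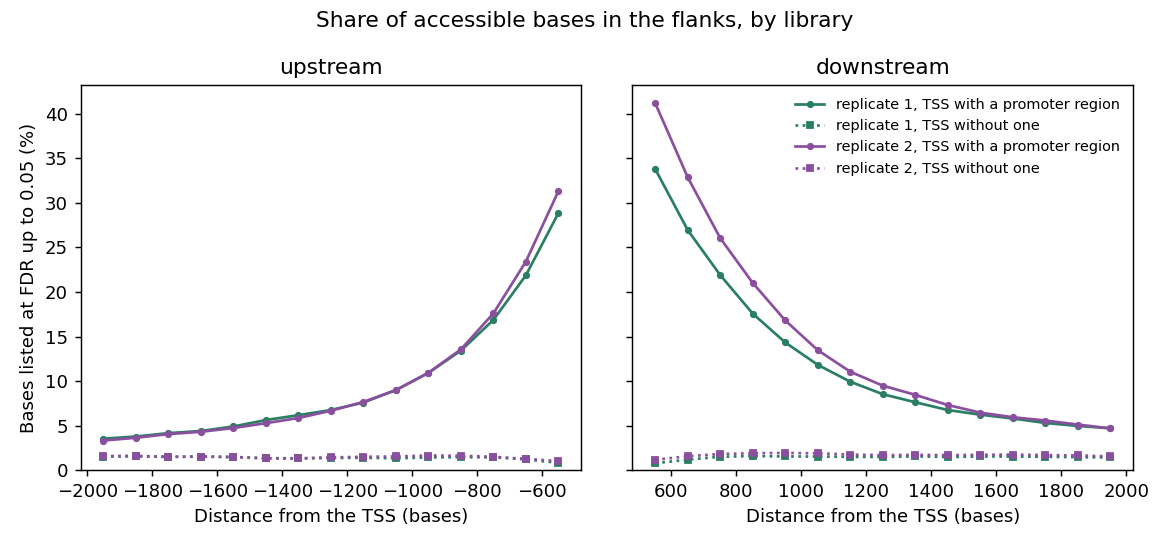
Share of bases listed at an FDR of up to 0.05 (vertical axis, percent) by distance from the TSS in bins of 100 bases, upstream in the left panel and downstream in the right. Solid lines are TSSs with a promoter region and dotted lines TSSs without one, with replicate 1 in green and replicate 2 in purple, and the dotted lines run along the bottom of both panels.

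Flanking regions were far weaker than promoter regions and slightly stronger than distal ones. The median signal of flanking regions was 1.04 in replicate 1 and 1.08 in replicate 2. Promoter regions had 2.51 and 2.85, and distal regions had 0.885 and 0.867. Upstream members had medians of 1.16 and 1.17, above the 0.984 and 1.03 of downstream members in both libraries. A signal of at least 4 in both libraries was reached by 7.96% of upstream members (7.07 to 8.93) and 4.24% of downstream members (3.67 to 4.86), against 35.0% of promoter regions and 2.54% of distal regions. At a signal of at least 10 there were 41 upstream and 12 downstream members. So the upstream flank held fewer regions per Mb and a larger share of strong ones.

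**Figure D3:**
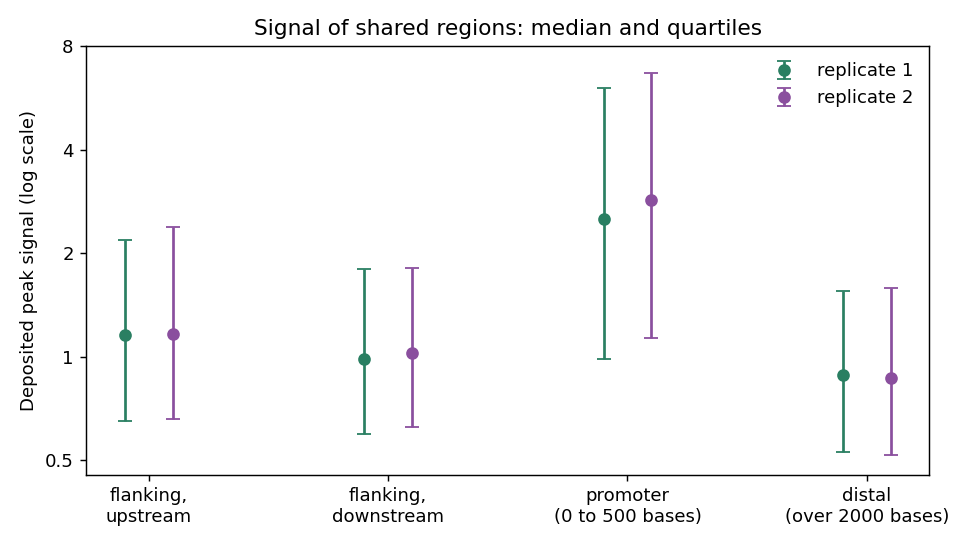
Deposited peak signal of shared regions on a log scale (vertical axis), with the median as a point and the quartiles as bars, for upstream flanking, downstream flanking, promoter and distal regions, replicate 1 in green and replicate 2 in purple. Medians of the flanking groups lie between 0.984 and 1.17, below the promoter medians of 2.51 and 2.85.

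Members were also read against the promoter they flank. The nearest TSS had a promoter region for 76.2% of members, with 73.0% upstream (71.4 to 74.5) and 78.5% downstream (77.3 to 79.7), against 61.7% of distal regions. Among these 6014 members the median ratio to the signal of that promoter was 0.308 in replicate 1 and 0.294 in replicate 2. In 838 of them (13.9%) the flank was stronger than the promoter in both libraries. This was 17.0% upstream (15.6 to 18.6) and 11.8% downstream (10.8 to 12.9). For 1062 of the 6014 members (17.7%), FDR-listed bases ran unbroken from the region to its neighbour on the TSS side. These joined members lay closer to the TSS, at a median of 714.5 bases, against 1048 bases for the others. Their signal was higher, with medians of 1.65 in replicate 1 and 1.75 in replicate 2, against 1.01 in each library for the others.

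Base composition of the flanks lay between those of promoters and distal regions. The median G+C content of the central 200 bases was 52% upstream and 54% downstream, against 63% in promoter and 50.5% in distal regions. A window was called CpG-rich at a G+C content of at least 55% and an observed over expected CpG ratio of at least 0.65. This held for 9.43% of upstream members (8.46 to 10.5) and 15.1% of downstream members (14.1 to 16.2), against 57.7% of promoter and 2.18% of distal regions. The share fell with distance, to 6.73% upstream and 5.64% downstream in the outermost bin, against 14.4% and 23.9% in the innermost. CpG-rich members upstream had median signals of 2.46 and 3.13, while those downstream had 1.12 and 1.44. CpG-poor members lay closer together, with 1.09 and 1.10 upstream and 0.959 and 0.967 downstream.

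Some members lay beside another annotated start. A start of a noncoding transcript or of a RefSeq mRNA stood within 500 bases of 1740 members (22.0%), against 5.71% of distal regions. The share was 19.9% upstream (18.6 to 21.3) and 23.6% downstream. Among CpG-rich members it was 43.1%, against 18.98% among CpG-poor members. The start belonged to a long noncoding RNA gene for 401 members (5.08%). Members without another start nearby had medians of 1.02 in replicate 1 and 1.04 in replicate 2, close to the values of all members.

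Repeated sequence was uncommon. Repeat-masked bases made up more than 50% of the sequence in 4.94% of upstream members and 1.95% of downstream members, against 0.532% of promoter and 3.79% of distal regions. Sampled words of 25 bases occurred elsewhere in the genome for over 50% of the words in 95 members (1.20%).

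Footprints found in both libraries lay in 61.96% of members, in 65.8% upstream (64.2 to 67.4) and 59.1% downstream (57.7 to 60.6), against 77.4% of promoter regions and 63.4% of distal regions. The share followed the signal closely. At a mean signal of 0.5 to 1 a footprint was found in 44.1% of flanking members (42.2 to 46.1), against 36.5% of promoter and 56.5% of distal regions of the same strength. At 1 to 2 the shares were 76.9% of flanking members (75.1 to 78.6), 70.3% of promoter and 87.1% of distal regions. At 4 or more, 99.7% of flanking members held one. At matched signal between 0.5 and 2, footprints were thus found less often in the flanks than in distal regions.

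Binding words were searched on both strands in the central 200 bases of each region, and matches of different words may overlap. Of the 29 words, 4 are given here for both sides. The word GGGGCGGGG of SP and KLF factors occurred in 3.47% of upstream and 3.10% of downstream members, against 14.8% of promoter and 1.30% of distal regions. The ETS word CCGGAAG occurred in 2.87% and 2.11%, against 11.4% and 1.93%. The AP-1 word TGANTCA, bound by FOS and JUN proteins, occurred in 6.47% upstream and 5.67% downstream, against 3.24% in promoter and 8.06% in distal regions. CAAAGTCCA, a word of HNF4, the nuclear receptor of proximal tubule and liver, occurred in 1.08% and 1.27%, against 0.537% and 1.65%.

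The CTCF word was more frequent upstream than downstream. It occurred in 5.36% of upstream members (179 regions, 4.62 to 6.18) and in 2.59% of downstream members (118 regions, 2.15 to 3.09), against 1.10% of promoter and 6.98% of distal regions. The order was the same at a G+C content of 45 to 55% (4.91% upstream, 2.99% downstream) and of 55 to 65% (6.32% and 2.62%). It was also the same among intronic members, with 5.0% upstream (3.75 to 6.50) and 2.40% downstream (1.89 to 3.01). Among members in exons of noncoding transcripts it was not, with 2.48% upstream (1.08 to 4.82) and 2.56% downstream (1.28 to 4.53). The E-box word CAGCTG had the opposite order, with 13.3% upstream (12.2 to 14.5) and 16.3% downstream (15.3 to 17.4). Of the CTCF matches in members, 84.3% touched a shared footprint, as did 82.1% of matches to TGACGTCA and 58.7% of those to the SP and KLF word. For AP-1 this was 14.1%, and for the GATA word AGATAA it was 4.57%. Shared footprints covered 11.6% of all bases in the same windows. That share is for single bases, and a word of several bases has more chances to touch a footprint. The AP-1 share can therefore not be ranked against it, while the GATA share lay below it.

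**Figure D4:**
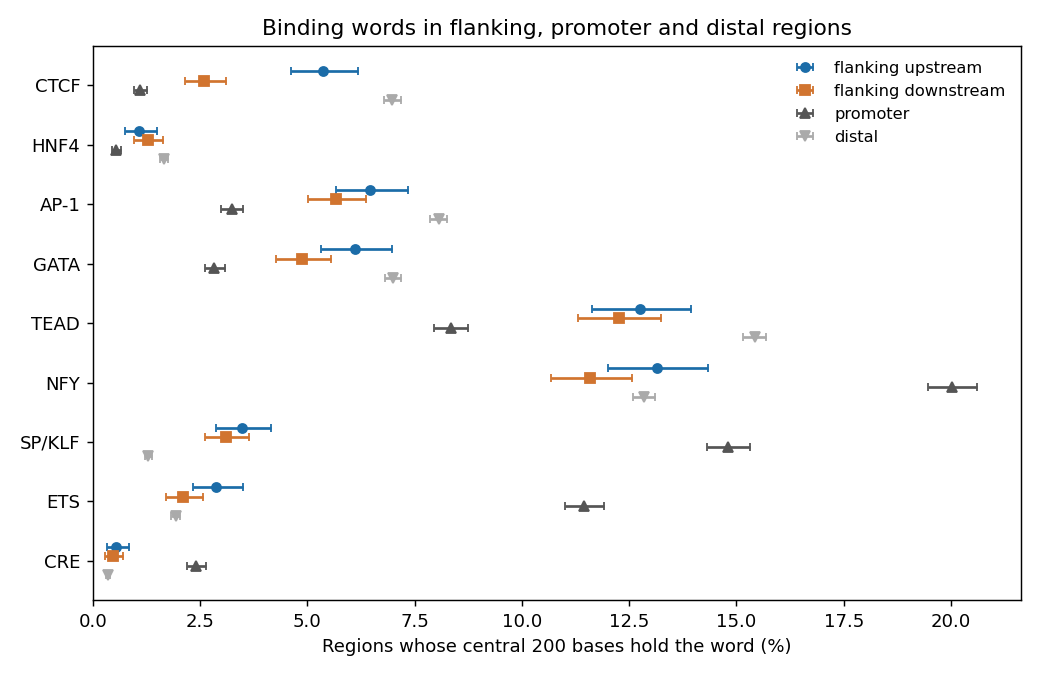
Share of regions whose central 200 bases hold a word (horizontal axis, percent) for 9 of the 29 words searched, with exact binomial 95% intervals, for upstream and downstream flanking, promoter and distal regions. The CTCF word stands at 5.36% upstream and 2.59% downstream, and SP/KLF, ETS and NFY words lie farthest right in promoter regions.

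The libraries were compared region by region. Replicate 1 was more than 2-fold higher in 198 members (2.51%) and replicate 2 was more than 2-fold higher in 441 members (5.59%). Over all shared regions, 4.31% were more than 2-fold higher in replicate 1 and 7.64% in replicate 2, so flanking members differed between libraries less often than shared regions as a whole. In either direction the share was 10.2% upstream (9.15 to 11.2) and 6.59% downstream, against 2.99% of promoter regions, 14.9% of distal regions and 11.9% of all shared regions. The SD of the log2 ratio of replicate 1 to replicate 2 was 0.60 upstream, 0.53 downstream, 0.42 in promoter and 0.68 in distal regions.

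Members with the CTCF word stood apart in this comparison. Their median signal was 1.32 in replicate 1 and 2.33 in replicate 2, while members without it had 1.03 and 1.05. Replicate 2 was more than 2-fold higher in 90 of the 297 members with the word (30.3%, 25.1 to 35.9), against 4.62% of those without it (4.16 to 5.12). This held upstream, with 29.1%, and downstream, with 32.2%. Promoter and distal regions with the word showed the same direction, with 17.8% and 40.8%, against 2.09% and 7.01% of those without it. Members with the HNF4 word leaned to replicate 1, with medians of 1.54 in replicate 1 and 1.19 in replicate 2 (94 regions). G+C content moved with the library ratio as well, since the median log2 ratio was 0.16 below a G+C content of 45% and -0.25 at 65% or more. The part of library preparation or tissue makeup in these differences was not tested.

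Peaks of each library were also followed singly. Of 12727 flanking peaks in replicate 1, 68.9% overlapped a peak of replicate 2, and of 12120 flanking peaks in replicate 2, 70.3% overlapped a peak of replicate 1. Promoter peaks were shared in 86.2% and 86.6% of cases, and distal peaks in 69.7% and 78.5%. Weak flanking peaks, with a signal of 0.25 to 0.5, were shared in 41.4% of cases in replicate 1 and 39.3% in replicate 2, against 50.8% and 60.9% of distal peaks of that strength. At a signal of 2 to 4, 99.0% of flanking peaks in replicate 1 were shared.

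The strongest upstream region by mean signal was that of Kpna1, an importin of nuclear transport, printed above. It had a signal of 12.5 in replicate 1 and 33.3 in replicate 2. Of the 20 strongest named here, it alone differed more than 2-fold between the libraries, against 8.09% of all flanking regions. The region of Fbrs, which encodes fibrosin, had 26.3 and 16.4. That of Rprd2, a protein that binds RNA polymerase II, had 20.6 and 18.6, and that of the zinc finger factor gene Sp4 had 19.2 and 18.2. Bahcc1, a chromatin protein gene, had 18.6 in each library, and Ptma, which encodes prothymosin alpha, had 17.0 and 19.3. The others were those of C1qtnf6, Per1, Cpeb4 and Tmem259. Of the 10 upstream regions, 9 were stronger in both libraries than the promoter region of their nearest TSS, and 5 had another start within 500 bases. Other TSSs of the same gene do not enter this count, and Per1 had a stronger promoter region at another TSS. Cpeb4, which encodes an RNA-binding protein that controls translation, had 17.9 and 14.9 in the flank. The promoter region of its nearest TSS had 0.504 and 0.475. The Cpeb4 and Rprd2 regions each lay within 500 bases of a RefSeq mRNA start, and those of Fbrs and C1qtnf6 within 500 bases of a predicted one. All of these may belong to another promoter.

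Downstream, the strongest region lay 1113 bases inside Nr1d1, the clock gene of the repressor REV-ERB alpha. It had a signal of 28.1 in replicate 1 and 24.2 in replicate 2, against 26.0 and 20.9 at the promoter region of its nearest TSS. Its window held the D-box word TTATGTAA bound by DBP and TEF. Foxn3, a forkhead repressor gene, had 20.98 in replicate 1 and 20.95 in replicate 2. Mxi1, whose product binds MAX and opposes MYC, had 18.03 and 22.5, against 1.00 and 1.66 at the promoter region of its nearest TSS. Other TSSs of the same gene do not enter these promoter values. The corepressor gene Sin3a had 23.8 and 14.1, and Mnt, another gene of a MAX partner, had 19.2 and 16.3. Angptl6, which encodes an angiopoietin-like secreted protein, had 18.96 and 17.3 and no promoter region, and Clec11a, a secreted growth factor gene, had 19.2 and 12.4 and none either. Zfp503, Elf2 and Sertad3 completed the 10. The Foxn3, Sin3a and Angptl6 regions each lay within 500 bases of a predicted RefSeq mRNA start, so they too may belong to another promoter. Of these 20 regions, 12 held a CCAAT box word, 11 were CpG-rich and 9 had another start within 500 bases, against 12.2%, 12.7% and 22.0% of all flanking regions.

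At the level of genes, 5630 of 21670 protein-coding genes (26.0%) had a flanking region. Such a region was found at 4769 of the 13643 genes with a promoter region (35.0%) and at 861 of the genes without one (10.7%). Of these 861 genes, 175 had a promoter peak in a single library list or peaks that did not join. Most genes with a flanking region had just 1 (4006 genes), while 1157 had 2 and 467 had 3 or more. Nfic, which encodes a nuclear factor I protein, had the most with 9, between a mean signal of 0.511 and 10.03, over 6 annotated TSSs. Tns1, a focal adhesion gene, had 8 over 11 TSSs. Nr2f2, the orphan nuclear receptor gene COUP-TFII, had 7 over 3 TSSs. Genes with many TSSs have more flank, so these counts are not per TSS.

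The named gene lists differed in how many members had a flanking region, and the share over all genes was 26.0%. It was highest among immediate early genes (10 of 10) and circadian clock genes (10 of 12), and 0 of 14 among immune cell genes. The endothelial list had 1 of 12, although all 12 had a promoter region. The lists hold few genes and were chosen with earlier results of these data known, so the counts are descriptions.

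**Figure D5:**
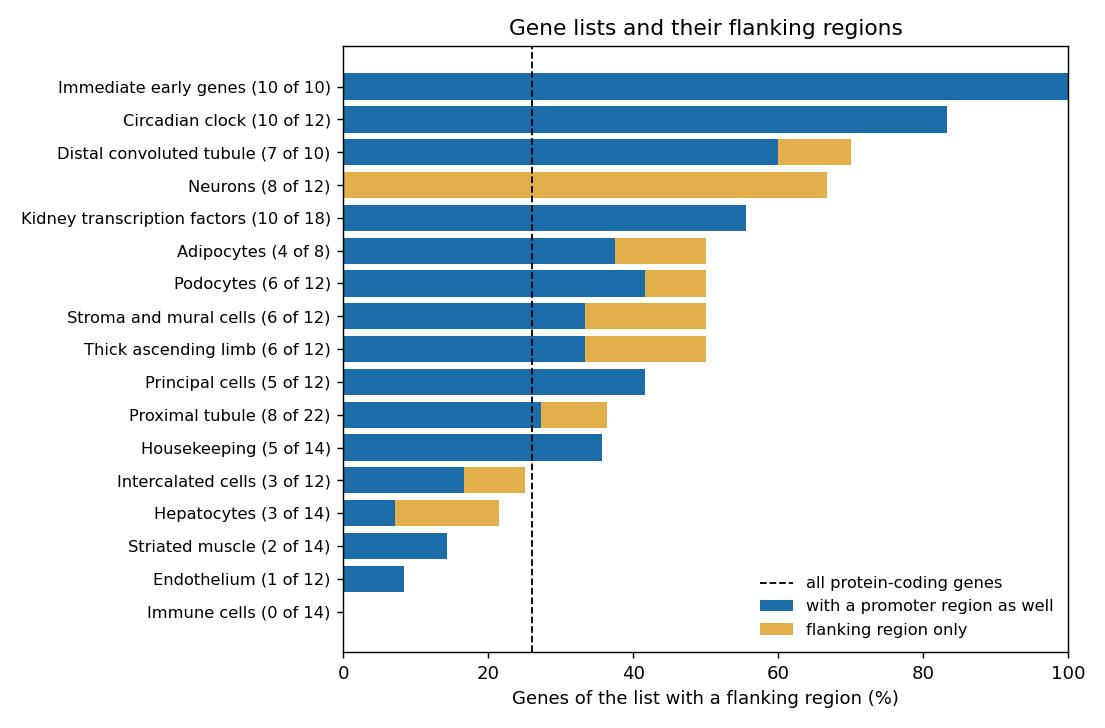
Share of genes in each list with a flanking region (horizontal axis, percent), split into genes that also have a promoter region (blue) and genes with a flanking region alone (yellow), with the number of genes beside each list name. Immediate early genes (10 of 10) and circadian clock genes (10 of 12) are at the top, the neuron bar (8 of 12) is all yellow, and the dashed line is the 26.0% of all protein-coding genes.

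Immediate early genes, which cells switch on within minutes of a stimulus, had 24 flanking regions with median signals of 2.28 in replicate 1 and 2.37 in replicate 2. Jun, a subunit of AP-1, had an upstream region with 12.7 and 13.6. The strongest of Ier2, a stimulus-induced nuclear protein gene, had 13.2 and 10.9. That was above the promoter region of its nearest TSS in replicate 1 (9.02) and not in replicate 2 (11.4). None of the 24 differed more than 2-fold between the libraries, against 8.09% of all flanking regions, a small share for so few regions. Of the 24, 19 were higher in replicate 2, as were 53.2% of all flanking regions. Clock genes had 18 regions with medians of 2.79 and 2.89. Per1, a repressor of the clock, had 15.7 and 17.2 at 1708 bases upstream of an internal TSS, against 12.4 and 13.9 at that TSS. The same region lay inside the gene, downstream of another Per1 TSS. The promoter region of that other TSS was stronger than the flanking region in both libraries. The window of the flanking region held TGACGTCA and a steroid receptor pair, a word recognised by glucocorticoid and related receptors. Dbp, a clock output factor gene, had regions on both sides, with 8.77 and 9.35 in the strongest.

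Among kidney transcription factor genes, 10 of 18 had a flanking region and all 18 had a promoter region. Pax2, a regulator of nephron formation, had 3.39 in replicate 1 and 3.76 in replicate 2 upstream. The promoter region of the TSS nearest to it had 2.67 and 3.13. Of the proximal tubule list 8 of 22 genes had one. The organic anion transporter gene Slc22a8, without a promoter region, had 2.93 and 2.09 downstream, and the amino acid transporter gene Slc7a13, also without, had 1.93 and 0.617 upstream. The Slc22a8 region touched a 5′ untranslated exon and had another annotated start within 500 bases. Ass1, an enzyme gene of arginine synthesis, had 1.92 and 1.69. Of the 14 proximal tubule regions, 3 were higher in replicate 2, against 53.2% of all flanking regions. Of the same 14, 1 differed more than 2-fold, against 8.09% of all flanking regions.

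In the later nephron, the distal convoluted tubule list had 7 of 10 genes with a flanking region and the thick ascending limb list 6 of 12. Slc12a3, the sodium chloride cotransporter gene, had 6.74 in replicate 1 and 4.00 in replicate 2 upstream, and Sgms2, a sphingomyelin synthase gene, had 4.24 and 2.43 downstream. Trpv5, the apical calcium channel gene, had a promoter peak in replicate 1 alone and 0.876 and 0.392 upstream. Cldn19, a tight junction gene of magnesium reabsorption, had no promoter peak in either library and 2.12 and 1.501 upstream. Bsnd, a chloride channel subunit gene, had 1.84 and 1.49, and Tmem207 had 0.653 and 0.909 with a promoter peak in replicate 1 alone. Principal cells had 5 of 12, led by Gata3 with 4.11 and 3.26 and by the water channel gene Aqp4 with 1.84 and 1.65. The promoter region of the TSS nearest to the Gata3 region had 0.984 and 1.18. Intercalated cells had 3 of 12, with the proton pump gene Atp6v1b1 at 2.90 and 2.02 and the anion exchanger gene Slc4a9, without a promoter region, at 1.44 and 1.88.

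Podocyte genes had a flanking region in 6 of 12 cases. Synpo, an actin-binding protein gene, had 2.12 in replicate 1 and 3.18 in replicate 2 upstream, and the phosphatase gene Ptpro had 0.198 and 0.217 with no promoter region. Stroma and mural cell genes had 6 of 12. Of their 9 regions 7 were higher in replicate 2, as were 7 of the 9 podocyte regions, against 53.2% of all flanking regions. Col1a1, a collagen chain gene, had 3.13 and 7.31, and its window held the CTCF word. Ren1, which encodes renin, the enzyme that starts the angiotensin cascade, had no promoter region and 2.46 and 4.79 at 1692 bases downstream. Tagln, a smooth muscle actin-binding protein gene, had a promoter peak in replicate 1 alone and 2.30 and 2.76 at 963 bases upstream. The endothelial region was that of Sox17, with 0.298 and 0.325.

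Among lists of other tissues, neurons had 8 of 12 genes with a flanking region and no promoter region, against 3.97% of all protein-coding genes. Their median signals were 0.550 in replicate 1 and 0.784 in replicate 2, below the flanking medians of 1.04 and 1.08, and 4 of the 8 regions were more than 2-fold higher in replicate 2, against 5.59% of all flanking regions and 7.64% of all shared regions. Slc17a7, a vesicular glutamate transporter gene, had 2.98 and 4.04, with a promoter peak in replicate 2 alone, and Rbfox3, the splicing factor gene behind the NeuN antigen, had 1.04 and 3.31. The synaptic gene Snap25 had 1.02 and 2.12, and Gad1, an enzyme gene of GABA synthesis whose window held the CTCF word, had 0.471 and 0.984. Camk2a, Stmn2, Gad2 and Syt1 were weaker, led by Camk2a with 0.628 and 0.584. Camk2a and Gad2 had a promoter peak in replicate 1 alone.

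Hepatocyte genes had 3 of 14, among them the apolipoprotein genes Apoa1 with 4.79 and 5.16 over coding sequence and Apoa2 with 1.47 and 2.28, both without a promoter region. Adipocyte genes had 4 of 8. The hormone-sensitive lipase gene Lipe had 9.05 and 10.3, and the lipid droplet gene Plin1 had 8.89 and 5.97. The Lipe region touched a 5′ untranslated exon and had another annotated start within 500 bases. Lep, which encodes leptin, had 0.612 and 0.634 with no promoter region. Striated muscle genes had 2 of 14, Ryr1 with 1.40 and 2.41 and Ttn with 0.306 and 0.325. Housekeeping genes had 5 of 14, with Gapdh at 4.56 and 3.77, below its promoter.

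The signal was similar just inside and just outside the limits of 500 and 2000 bases. At the inner limit, the 499 flanking regions nearest to it, over a span of 50 bases, had medians of 1.00 in replicate 1 and 1.06 in replicate 2, against 0.951 and 1.01 for the 548 promoter regions in the last 50 bases before it. At the outer limit, the last 133 flanking regions had 1.07 and 1.09, against 1.14 and 0.984 for the 150 distal regions of the next 50 bases.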

How the data were processed

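DNase-seq of kidney tissue gave 2 libraries of 1 group. The deposited peak lists give a signal per peak, the deposited FDR files give a q-value per listed base, and the authors' footprint lists give a constant p-value. For the aligner and the peak caller, name and version were not given in the sources used here. Peaks of the longer list of each library were merged where they overlapped, and regions with a peak from both were kept, with the highest signal of each library. Distance ran from the nearest edge to the nearest GENCODE M21 protein-coding TSS (54050 positions). Sequences and repeat masking came from RefSeq GRCm38. Words of 25 bases were sampled every 10 bases and counted in the genome. Python 3.11.15, numpy 2.4.6, pandas 2.3.3, scipy 1.17.1, bedtools 2.31.1, samtools 1.23.1 and pysam 0.24.0 were used, and the procedures were tested on simulated data. The named genes are the 10 strongest members of each side and, per list, the genes with a flanking region alone and the 2 with the strongest member. The members and the lists were chosen with earlier results of these data known. With 2 libraries in 1 group no test across samples was made. The alternatives tried are in the closing section. Some genes that this rule names are not reported here.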

Additional observations from a re-analysis of the deposited data

Results flagged for a closer look

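Flanking regions also appeared in data outside the main measurement. Of the 5072 regions found in both shorter peak lists at flanking distance, 41 overlapped no shared region of the longer lists, with median signals of 0.488 in replicate 1 and 0.525 in replicate 2. Of 11721 footprints found in both libraries at flanking distance, 667 (5.69%) lay outside every shared region, and 75 of these lay in a peak of a single library.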

How the results depend on the processing

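The order of upstream and downstream members was recomputed for 3 measures. The CTCF word was more frequent upstream under 12 of 12 settings, upstream members were fewer under 10 of 10, and their median mean signal was higher under 10 of 10. The other contrasts of the report were not recomputed under these alternatives. Levels did move. With the shorter peak lists, members numbered 5072, the median mean signal was 1.79 upstream and 1.48 downstream, 84.5% of members had a nearest gene with a promoter region, 75.9% held a footprint, 15.9% were CpG-rich and the CTCF word stood at 7.07% upstream and 3.30% downstream. With peaks at or above their list's median signal, these values were 4591, 1.96, 1.66, 86.2%, 82.8%, 15.6%, 6.25% and 3.38%, and genes with a flanking region alone numbered 557. In the inner flank, up to 1000 bases, there were 3794 members, a downstream median of 0.962, 90.2% with a promoter region at the nearest gene, 56.5% with a footprint, 17.5% CpG-rich, 1.83% with the CTCF word downstream and 352 genes with a flanking region alone. Beyond 1000 bases there were 4101 members, a downstream median of 1.07, and shares of 84.7%, 67.0%, 8.24% and 3.33%. With every transcript of a protein-coding gene, 44.6% of members were upstream, and the shares were 88.9% (promoter region), 64.1% (footprint), 9.58% (CpG-rich), 6.14% (CTCF upstream) and 4.11% (CTCF downstream). With gene starts alone they were 34.9% upstream, 82.7%, 59.7%, 21.08% and 1.65% for CTCF downstream, with a downstream median of 1.07. With distance from the midpoint they were 40.3% upstream, 90.1%, 57.3%, 17.2%, 4.65% and 2.07%, with a downstream median of 0.979. An overlap of at least 50% gave a downstream median of 1.04, 86.9% with a promoter region and 62.9% with a footprint. Stricter footprint overlap gave 59.2%. Words in the central 100 bases gave 4.88% for CTCF upstream and 2.39% downstream. The cause of these shifts was not tested.

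With a single library's peaks, without replicate 1 or without replicate 2, members numbered 11812 to 12536 and 39.6% to 42.3% were upstream. Median signals were 0.752 to 0.817 upstream and 0.703 to 0.725 downstream, and a promoter region stood at the nearest gene of 90.1% to 90.6%. A footprint of the same single library lay in 69.5% to 70.3%, which is not the measure of footprints found in both libraries used above. Counted by the footprints of 1 library, the shares among the shared members were 83.9% for replicate 1 and 81.4% for replicate 2. CpG-rich members made up 10.8% to 13.01%, and the CTCF word stood at 3.55% to 4.21% upstream and 1.70% to 1.96% downstream. No paired analysis was possible because there is 1 group and no test between groups. The weakest flanking peaks were shared least often between the libraries, and the part of depth in this was not tested.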
